A study of Mus musculus with 6 samples.

Results

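The genes described here are the expressed members of the mouse Zfp series, zinc-finger genes whose symbol is Zfp followed by a number. They were chosen by level, as rows with at least 1 FPKM (fragments per kilobase of transcript, scaled to the library's total) in at least 3 of the 6 libraries. Zfp352, Zfp809 and Zfp42 were left out. This gave 216 members out of 373 such rows, and out of 11893 genes of any name that passed the same filter among 55335 rows. The libraries are Smart-Seq2 libraries, a full-length cDNA method primed with oligo-dT, from mouse 4-cell embryos. The 3 control libraries (Con) carry the treatment label Con, and no source used here says whether they received the vehicle. The 3 DRB libraries come from zygotes that were put into 20 µM DRB at 6 h after fertilization, kept in it for 20 h, washed, and grown for another 26 h without inhibitor. DRB is a nucleoside analogue that blocks elongation by RNA polymerase II through the kinase CDK9. Strain, genotype and embryos per library were not given, and no treatment other than DRB separates the groups in the labels. For the control libraries the 4-cell stage is recorded here and no time after fertilization, so a difference in age between the groups cannot be checked. In such bulk samples fewer cells of a type and less RNA per cell cannot be told apart.

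Most Zfp proteins carry C2H2 zinc fingers, short loops in which a pair of cysteines and a pair of histidines hold a zinc ion, and rows of fingers read DNA sequence. Many also carry a KRAB box, which binds KAP1 (the product of Trim28) and through it SETDB1, HP1 proteins and histone deacetylases, and this machinery silences retroelements and protects imprinted loci in the early embryo. KRAB genes arose by tandem duplication and sit in clusters of close relatives. Other Zfp genes have unrelated work, in RNA decay, ribosome assembly or the spindle, and share only the name.

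The coding sequence of a single finger is shown for 4 members because it is the feature that gives the family its name and its close repeats. The genes are Zfp239, which was lower after DRB, and Zfp677, Zfp54 and Zfp51, which are neighbours on chromosome 17. Each run is the first finger of the protein with 2 residues between the cysteines, 3 between the histidines and the usual linker behind it, 84 bases read 5′ to 3′ from GENCODE M21 transcripts (GRCm38). Capitals mark the codons of the metal-binding cysteines and histidines.
Zfp239, last of 3 exons, chr6:117871324-117871407, plus strand: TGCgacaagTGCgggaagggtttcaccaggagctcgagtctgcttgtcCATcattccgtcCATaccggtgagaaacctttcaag
Zfp677, last of 4 exons, chr17:21397241-21397324, plus strand: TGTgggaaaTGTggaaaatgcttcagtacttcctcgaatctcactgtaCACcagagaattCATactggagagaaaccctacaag
Zfp54, last of 4 exons, chr17:21434146-21434229, plus strand: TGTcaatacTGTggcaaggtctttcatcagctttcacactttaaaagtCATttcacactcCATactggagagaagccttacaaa
Zfp51, last of 5 exons, chr17:21463854-21463937, plus strand: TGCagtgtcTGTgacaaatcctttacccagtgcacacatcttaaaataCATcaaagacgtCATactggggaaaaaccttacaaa
The finger of Zfp54 matched that of Zfp51 at 54 of 84 bases and that of Zfp677 at 46. The finger of Zfp677 matched that of Zfp51 at 53, and equally that of Zfp239, on another chromosome, at 53. The fingers were picked to share the cysteines, histidines and linker, so part of each match was set by that choice. They are finger 1 of Zfp239 and of Zfp677, finger 4 of Zfp54 and finger 2 of Zfp51, so the matches do not measure how related the genes are. These 4 genes shared little sequence with any other gene: of the 50-base words in their transcripts, 0.036% (Zfp677) to 5.32% (Zfp54) also occur in another GENCODE gene, and 0% in Zfp239.

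Among the 212 members with a translated reading frame, 207 held at least 1 match to the C2H2 pattern, with a median of 11 and at most 36, in Zfp142. The 5 without a match were Zfp36, a CCCH-type RNA-binding protein, and Zfp330, Zfp781, Zfp957 and Zfp972. Both parts of the KRAB A box pattern were found in 104 members, with a median of 12 fingers, and not in 108, with a median of 8. The pattern misses diverged boxes, since of 6 genes listed as KRAB genes of imprints and retroelements (Zfp57, Zfp445, Zfp568, Zfp708, Zfp819 and Zfp932) it found Zfp57, Zfp568 and Zfp932. With either part of the pattern accepted, 133 members had one.

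The members were mostly low and a few were abundant. The median of their mean levels was 6.26 FPKM, against 7.87 FPKM for all tested genes. Of the 216, 80 had a mean of at least 10 FPKM, 21 of at least 50 FPKM, and 41 had a mean below 2 FPKM. The 10 most abundant took 61.2% of the members' summed FPKM. At least 1 FPKM was reached in all 6 libraries by 151 members and in exactly 3 by 20. Just inside the filter, the third highest of the 6 values was 1.01 FPKM for Zfp69, 1.09 for Zfp58 and 1.10 for Zfp39, and just outside it was 0.98 for Zfp839 and Zfp945 and 0.97 for Zfp438. Of the 157 rows below the filter, 16 were listed at 0 in all 6 libraries. At the depth estimated from the steps of the low values, 1 FPKM stood for about 70.3 to 78.7 fragments of a transcript of the members' median length. This counts sequenced fragments and does not give the number of RNA molecules behind them. Low members could still vary widely within a group, such as Zfp58 at 0, 0 and 1.09 FPKM in DRB replicates 1 to 3.

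**Figure D1:**
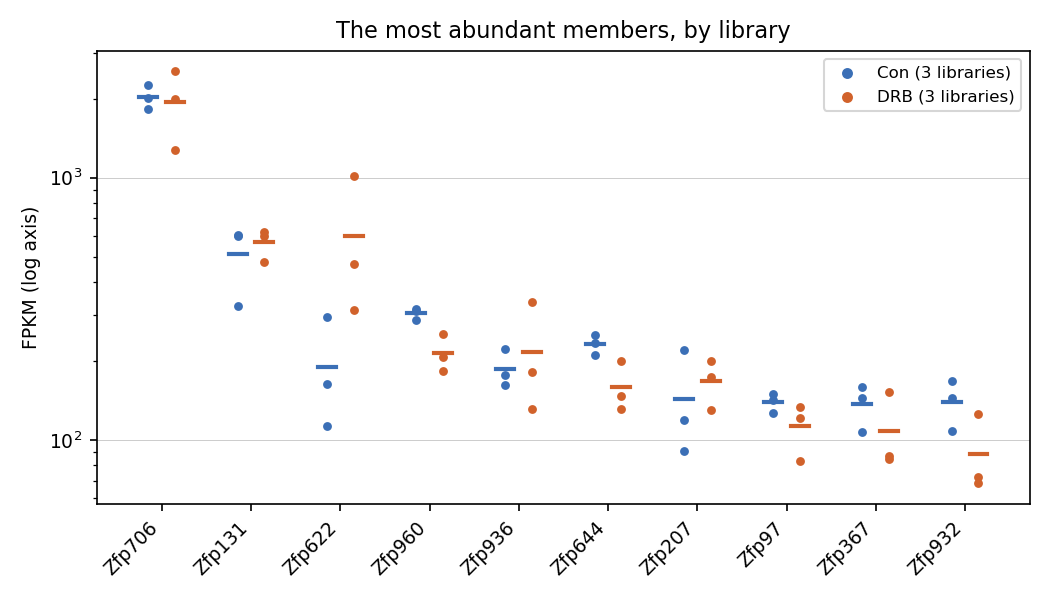
FPKM on a log axis for the 10 members with the highest mean level, with 1 point per library and a bar at each group mean, Con in blue and DRB in orange. Zfp706 was the highest in both groups, and Zfp622 was the member of the 10 with all DRB libraries above all Con libraries.

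Zfp706, a small protein linked to the exit of embryonic stem cells from self-renewal, was the most abundant member. It stood at 1822, 2253 and 2018 FPKM in Con replicates 1 to 3 and at 1281, 1997 and 2545 FPKM in DRB replicates 1 to 3. The DRB libraries lay on both sides of the Con libraries (log2 fold change -0.12 ± 0.29 SE, limma adjusted p 0.885). Zfp131, a BTB-domain transcription factor, came next at 510 ± 162 FPKM in the controls against 566 ± 76.8 FPKM with DRB (SD, n = 3 per group). Zfp622, a factor of large ribosomal subunit maturation, was at 113, 163 and 293 FPKM in the controls against 1016, 314 and 469 FPKM with DRB. The 2 groups of Zfp622 values did not overlap, but DRB replicate 1 was far above the other DRB libraries, and the change did not pass the test (log2 fold change 1.59 ± 0.45 SE, limma adjusted p 0.0911).

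The other abundant members differed less between the groups than Zfp622 did. Zfp644, which brings the H3K9 methyltransferases G9a and GLP to DNA, stood at 211, 235 and 251 FPKM in the controls against 201, 131 and 147 FPKM with DRB, without overlap (log2 fold change -0.56, limma adjusted p 0.293). Zfp960 stood at 304 ± 16.8 FPKM in the controls against 215 ± 36.6 FPKM with DRB (SD, n = 3; log2 fold change -0.51, limma adjusted p 0.303), also without overlap. Of the 50-base words of Zfp960, 82.7% also occur in another gene, as do 81.3% of those of Zfp97, so the split of reads between such relatives is uncertain. Zfp97, Zfp936, Zfp367, Zfp207 and Zfp932 overlapped between the groups, with log2 fold changes of -0.33, 0.11, -0.37, 0.31 and -0.69. Zfp207 (BuGZ) is a spindle assembly factor that binds BUB3.

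The comparison of DRB with Con asks how transcripts of the 4-cell embryo differ after transcription was blocked from the zygote stage and then released. Of the 216 members 3 were called at a limma adjusted p below 0.05 over all tested genes, 2 higher and 1 lower in DRB. That is 1.39% of the members, beside 2.48% of all 11893 tested genes (1.53% higher and 0.95% lower), so the members were called at no greater share than genes at large. The median log2 fold change of the members was -0.06, with the middle of the distribution from -0.43 to 0.33, and that of all tested genes was -0.09, from -0.51 to 0.33. Of the members 44.4% had a positive sign, against 44.0% of all tested genes. At an unadjusted limma p below 0.05 stood 27 members, 14 higher and 13 lower, where 18.1% of all tested genes did (7.53% higher and 10.5% lower). The 3 DRB libraries lay entirely above the 3 Con libraries for 26 members and entirely below for 23, together 22.7%, beside 23.8% of all tested genes. A change of at least 1 in size on the log2 scale was seen in 11.6% of the members and 15.6% of all tested genes. The members' summed level was also similar, 6580 ± 396 FPKM in the controls against 6790 ± 187 FPKM with DRB (SD, n = 3), or 0.577% and 0.588% of all FPKM.

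**Figure D2:**
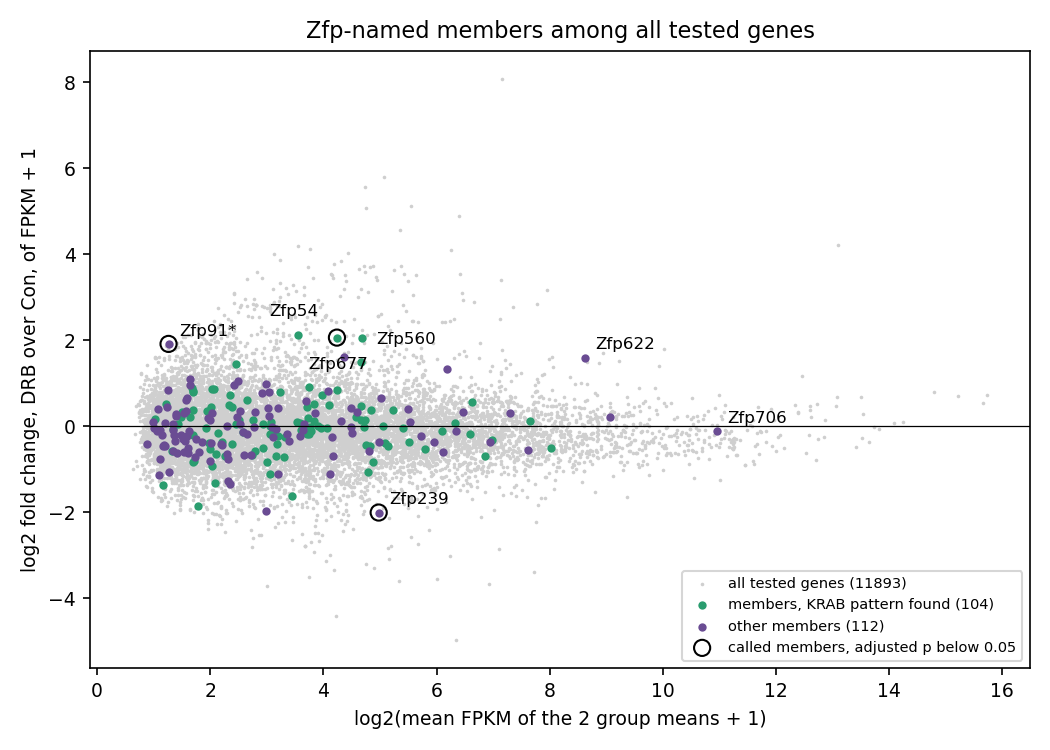
The log2 fold change of DRB over Con on the log2(FPKM + 1) scale against the mean level, with all 11893 tested genes in grey, the 104 members with a KRAB pattern in green and the other 112 in purple. Circles mark the 3 called members; Zfp91* is the second row with that symbol. The members lie within the spread of the grey genes; Zfp54 (2.12) is the highest member and Zfp239 (-2.01) the lowest.

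Zfp677 rose and Zfp239 fell. Zfp677, a KRAB zinc-finger gene on chromosome 17 (21383748 to 21399265, GRCm38, plus strand), stood at 4.56, 3.59 and 12.6 FPKM in the controls against 37.0, 22.7 and 26.8 FPKM with DRB. All DRB libraries were above all Con libraries, and Con replicate 3 was the highest of the controls. The log2 fold change was 2.06 ± 0.45 SE with a limma adjusted p of 0.0402. Zfp239, also known as Mok2, codes for a protein that binds both DNA and RNA, and lies on chromosome 6 (117862100 to 117873291, plus strand). It stood at 47.0, 57.6 and 40.6 FPKM in the controls against 18.4, 14.4 and 4.95 FPKM with DRB, with DRB replicate 3 the lowest. The log2 fold change was -2.01 ± 0.44 SE with a limma adjusted p of 0.0389. Both calls sit close to the threshold: when 1 library was left out, Zfp677 was called in 1 of 6 fits, the one without Con replicate 3 (limma adjusted p 0.0252 to 0.137), and Zfp239 in 0 of 6 (0.0575 to 0.134).

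The third called row is a second entry with the symbol Zfp91 (ENSMUSG00000118491.1), which has no counterpart in GENCODE M21. It was listed at 0 in the 3 Con libraries and at 3.08, 2.05 and 3.26 FPKM in DRB (limma adjusted p 0.0237). It passed the filter through the DRB libraries alone, so it had to differ. Without 1 library it passed the filter in 3 fits and was called in 0 (limma adjusted p 0.0755 to 0.0836). Its namesake on chromosome 19 (ENSMUSG00000024695.16), which codes for an E3 ubiquitin ligase, was at 7.52, 11.5 and 13.6 FPKM in the controls against 8.90, 9.61 and 6.09 FPKM with DRB (limma adjusted p 0.691). The sources do not say how reads were divided between the 2 entries. Zfp429 (log2 fold change -1.85, limma adjusted p 0.0637) and Zfp933 (-1.38, limma adjusted p 0.0900) passed the filter through Con alone, so they too had to differ. Without these 3 rows, 2 of 213 members were called and the median was -0.05.

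**Figure D3:**
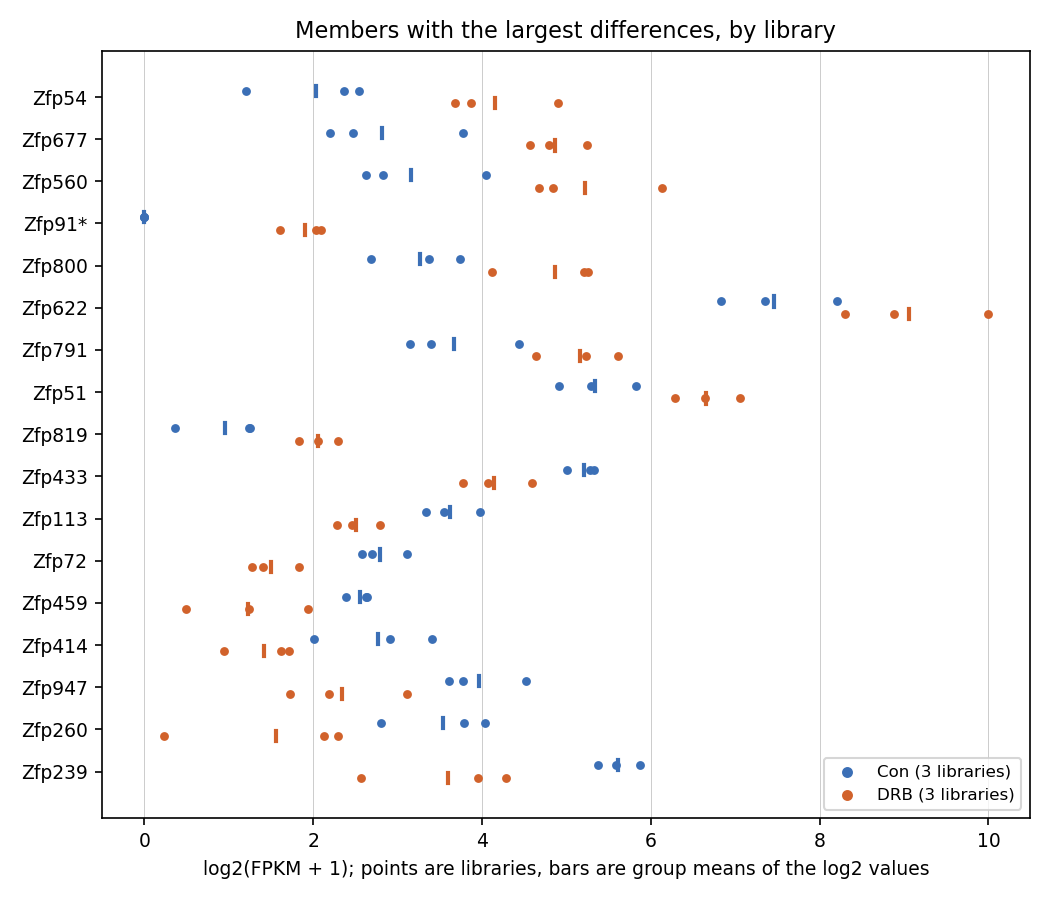
log2(FPKM + 1) in each library for the called members and for the 8 largest positive and 8 largest negative changes among members without overlap between groups, leaving out rows that passed the filter through 1 group, with Con in blue, DRB in orange and bars at the group means. In each line the orange points lie wholly to 1 side of the blue points, which is how these members were chosen; Zfp91* is the second row with that symbol.

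Several further members had large differences that did not pass the test. Zfp54, the neighbour of Zfp677, stood at 4.82, 1.31 and 4.14 FPKM in the controls against 13.7, 28.9 and 11.8 FPKM with DRB (log2 fold change 2.12 ± 0.49 SE, limma adjusted p 0.0502). Zfp560 stood at 6.07, 15.5 and 5.15 FPKM in the controls against 24.5, 69.3 and 27.6 FPKM with DRB (log2 fold change 2.05 ± 0.49 SE, limma adjusted p 0.0576). Zfp51, the next gene after Zfp54, stood at 29.1, 55.6 and 38.1 FPKM in the controls against 76.9, 132 and 98.6 FPKM with DRB (log2 fold change 1.32 ± 0.33 SE, limma adjusted p 0.0631). In each of these 3 genes DRB replicate 2 was the highest library, and Con replicate 2 was the lowest control for Zfp54 and the highest for Zfp560 and Zfp51. Zfp560 was called without Con replicate 2 (limma adjusted p 0.0416). With mitochondrial genes left out of the total, Zfp54, Zfp560 and Zfp51 were called (limma adjusted p 0.0437, 0.0432 and 0.0491) and Zfp239 was not (0.063). Exons of Zfp54 overlap Gm49691 on the other strand, and those of Zfp800 overlap 6530409C15Rik; no strand is recorded for these libraries. For Zfp800 the log2 fold change was 1.595 (limma adjusted p 0.0788) and for Zfp791 it was 1.5002 (limma adjusted p 0.0891). Zfp800 was called without DRB replicate 3 (limma adjusted p 0.0456). Zfp819, a repressor of retroelements, was at 1.36, 0.29 and 1.39 FPKM in the controls against 3.89, 2.55 and 3.17 FPKM with DRB (limma adjusted p 0.198).

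Apart from Zfp429 and Zfp933, the members lowest in DRB without overlap and without passing the test were Zfp260, Zfp947, Zfp414, Zfp459, Zfp72, Zfp113 and Zfp433, whose log2 fold changes were -1.98, -1.63, -1.35, -1.33, -1.29, -1.11 and -1.06. Their limma adjusted p ran from 0.0935 to 0.165. Zfp260 stood at 6.01, 12.8 and 15.4 FPKM in the controls against 3.92, 3.39 and 0.18 FPKM with DRB, where replicate 3 was close to 0. Zfp433 stood at 31.3, 39.1 and 37.8 FPKM in the controls against 15.8, 23.1 and 12.7 FPKM with DRB, but 84.3% of its 50-base words occur in another gene. In these 7 genes every DRB library was below every Con library, which was a condition of their choice.

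Position on the chromosome was not used to choose the members. Of the 215 members placed on GRCm38, 153 lay in 33 runs in which neighbouring members are at most 1 Mb apart, among them 93 of the 104 with a KRAB pattern. The largest runs were on chromosome 17 (18 members, 21008903 to 23193252), chromosome 4 (17 members, 145510759 to 147848366), chromosome 13 (11 members, 66669928 to 67729173) and chromosome 2 (9 members, 175372436 to 178034022). No test was made of a run, and runs were described with their values known.

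In the chromosome 17 run 14 of 18 members had a positive log2 fold change, the median was 0.50, and 7 had all DRB libraries above all Con libraries against 1 below. Among all tested genes 44.0% were positive, 9.85% lay above without overlap and 13.9% below. Zfp677 was the 1 member called, beside 2.48% of all tested genes. Besides Zfp677, Zfp54 and Zfp51, the members above without overlap were Zfp760, Zfp820, Zfp943 and Zfp944, whose log2 fold changes were 0.86, 0.57, 0.49 and 0.79, with limma adjusted p of 0.286, 0.284, 0.582 and 0.290. Zfp820, the most abundant of the 4, stood at 71.1, 89.2 and 74.0 FPKM in the controls against 122, 97.9 and 130 FPKM with DRB. The member below was Zfp947, at 12.7, 11.2 and 21.9 FPKM in the controls against 7.61, 3.54 and 2.30 FPKM with DRB. The 4 other tested genes inside the run had a median of 0.10, with 2 of 4 positive. With 1 library left out, 12 to 16 of the 18 members were positive and the median was 0.38 to 0.62.

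The other large runs looked different. In the chromosome 13 run 2 of 11 members were positive and the median was -0.63, with 0 called and 3 lower at an unadjusted limma p below 0.05. Beside that, 2.48% of all tested genes were called, 10.5% were lower at an unadjusted p below 0.05 and 44.0% were positive. Without Zfp429, which had to differ, 2 of 10 members were positive, the median was -0.61 and 2 were lower at that p. Zfp429 was at 2.18, 3.63 and 7.66 FPKM in the controls against 0.75, 0.06 and 0.46 FPKM with DRB, and Zfp459 at 5.24, 5.18 and 4.26 FPKM and 0.41, 1.37 and 2.82 FPKM. Exons of both overlap Gm48900 on the other strand. The 15 other tested genes inside this run had a median of -0.37. Without DRB replicate 1, 0 of the 11 were positive, with a median of -0.32, and without Con replicate 1 only 7 of the 11 passed the filter. The run was low, with a median of mean levels of 2.46 FPKM. At a minimum of 5 FPKM in at least 3 libraries only 3 of its members remained, with 1 positive and a median of -0.02. In the chromosome 4 run, whose 17 members all had a KRAB pattern, 41.2% were positive, the median was -0.03 and 0 were called. There Zfp993 and Zfp982 lay above without overlap, with log2 fold changes of 0.84 and 0.21. As many lay below, 2 of the 17, 1 of them Zfp933, which had to differ. Beside that, 9.85% of all tested genes lay above without overlap and 13.9% below. In this run 10 of the 17 members share at least 50% of their 50-base words with another gene (86.8% for Zfp993). In the chromosome 2 run the groups overlapped for all 9 members and the median was 0.33. The 27 other tested genes inside this run had a median of -0.44, with 6 of 27 positive. Of the 9 members, 8 share at least 50% of their 50-base words with another gene (49.7% for the lowest, Zfp970).

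**Figure D4:**
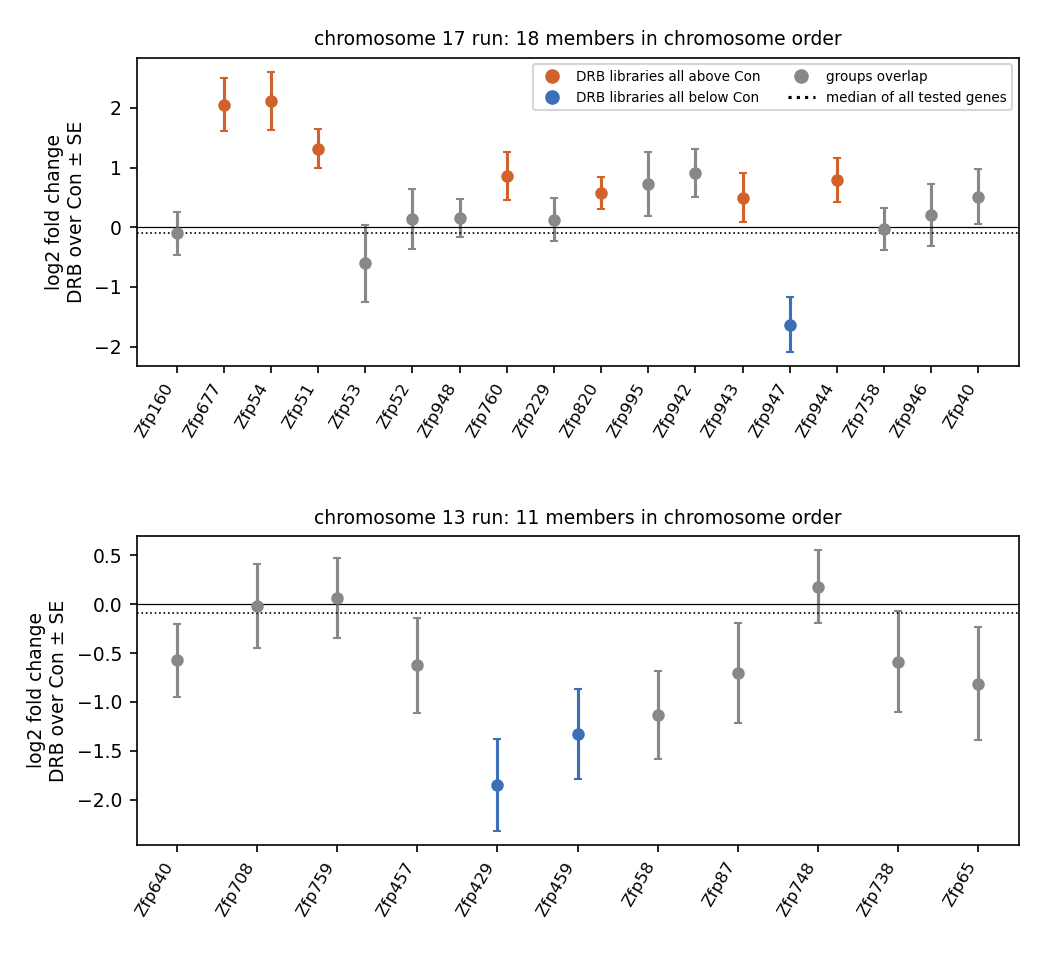
The log2 fold change of DRB over Con with limma's SE for the members of the chromosome 17 run (top) and the chromosome 13 run (bottom), in chromosome order and with equal spacing. Orange marks members with all DRB libraries above Con, blue all below and grey overlap, and the dotted line is the median of all tested genes, -0.09. Zfp677, Zfp54 and Zfp51 stand next to each other at the top of the first run.

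Members with and without a KRAB pattern are described side by side, with no test. Members with the pattern had a median of mean levels of 8.08 FPKM and those without it 4.45 FPKM. Members with the pattern also shared more of their 50-base words with another gene, a median of 7.11% against 1.07%. The part of shared reads in the levels was not tested. The median log2 fold change was -0.03 with the pattern and -0.11 without it. Called were 1 of 104 and 1 of 108, beside 2.48% of all tested genes. With either part of the pattern accepted, the medians were -0.03 and -0.12. By fingers the median was 0.01 for the 37 members with 1 to 5, -0.05 for the 58 with 6 to 10, -0.09 for the 77 with 11 to 15 and -0.02 for the 35 with 16 or more.

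By role, the KRAB genes of imprints and retroelements gave 0 calls in 6 tested members, with 1 at an unadjusted limma p below 0.05 (Zfp819) and a median of -0.14. Among all tested genes 2.48% were called and 18.1% stood at an unadjusted p below 0.05. At such shares 0 calls in so short a list say little about the role. Zfp57, which keeps methylation at imprinted control regions, was at 14.4, 7.36 and 3.40 FPKM in the controls against 7.63, 4.93 and 6.35 FPKM with DRB, overlapping widely. Zfp445, which acts with it, was at 11.8 ± 2.44 FPKM in the controls against 11.1 ± 2.23 FPKM with DRB (SD, n = 3). Zfp568, a repressor of a placental Igf2 transcript, was at 32.0 ± 9.87 and 22.8 ± 5.82 FPKM (limma adjusted p 0.539). Zfp932, which binds endogenous retroviruses, was at 140 ± 29.8 and 88.5 ± 31.9 FPKM (limma adjusted p 0.278). Zfp708 had a log2 fold change of -0.02, with 94.9% of its words shared with another gene.

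Of the zinc fingers linked to pluripotency 0 of 6 tested were called, 4 were positive and the median was 0.35. Beside that, 2.48% of all tested genes were called and 44.0% were positive. Zfp281, a partner of the core pluripotency factors, was at 17.3, 17.96 and 19.1 FPKM in the controls against 26.1, 25.6 and 22.5 FPKM with DRB. These values do not overlap and vary little, yet the change of 0.43 did not pass (limma adjusted p 0.502). Zfp217, a partner of the CoREST repressor complex, was at 4.59, 3.44 and 4.56 FPKM in the controls against 13.1, 10.4 and 5.53 FPKM with DRB (log2 fold change 0.98, limma adjusted p 0.252). Zfp706 and Zfp207, given above, belong to this list too. Zfp143, an activator of small nuclear RNA genes, was at 37.9 ± 5.23 and 50.5 ± 11.4 FPKM, and Zfp296 was at 86.7 ± 49.7 and 74.8 ± 26.5 FPKM (SD, n = 3).

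Of the RNA and ribosome zinc fingers 0 of 8 were called and 4 were positive, with a median of -0.03. The shares over all tested genes were 2.48% called and 44.0% positive. Apart from Zfp622, the values without overlap were those of Zfp106, an RNA-binding protein, at 20.2, 17.98 and 24.0 FPKM in the controls against 17.8, 15.1 and 6.68 FPKM with DRB (limma adjusted p 0.387). Zfp36, which speeds the decay of AU-rich mRNAs, was at 4.18 ± 1.95 and 5.35 ± 1.79 FPKM. Zfp598, a ligase that marks collided ribosomes, was at 9.36 ± 1.75 FPKM in the controls against 9.11 ± 6.37 FPKM with DRB, where replicate 1 was the high one. Zfp593, a factor of the large ribosomal subunit, Zfp346, which binds double-stranded RNA, Zfp638 and Zfp830 had log2 fold changes of -0.26, -0.12, 0.33 and 0.05. Of the 50-base words of Zfp593, 66.9% also occur in another gene, and its exons overlap E130218I03Rik on the other strand.

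Of the zinc fingers of chromatin, SUMO and genome maintenance 12 rows were tested. The second Zfp91 row, which had to differ, was the 1 call, 4 were positive, and the median was -0.36. Genes at large were called at a share of 2.48%, and 44.0% of them were positive. Zfp131 and Zfp644, given above, are among them. Zfp410, the activator of the remodeller gene Chd4, was at 93.5, 73.1 and 82.2 FPKM in the controls against 55.2, 56.9 and 48.9 FPKM with DRB, without overlap (log2 fold change -0.62 ± 0.26 SE, limma adjusted p 0.251). Chd4 itself had a log2 fold change of 0.19 (limma adjusted p 0.888). Zfp592 was at 3.07 ± 0.177 FPKM in the controls against 2.17 ± 0.298 FPKM with DRB (SD, n = 3), also without overlap. Zfp451, a SUMO ligase, Zfp335, a cofactor of H3K4 methylation, and Zfp277 had log2 fold changes of 0.42, -0.43 and -0.68, and Zfp668, Zfp746 and Zfp532 of 0.61, -0.59 and -0.05. None of the last 6 was called.

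The KAP1 silencing pathway, which KRAB proteins recruit, gave 0 calls in 20 tested genes, with 1 higher and 4 lower at an unadjusted limma p below 0.05 and a median of -0.10. Over all tested genes 2.48% were called, and 7.53% were higher and 10.5% lower at an unadjusted p below 0.05. Trim28 stood at 323, 441 and 516 FPKM in the controls against 725, 352 and 388 FPKM with DRB (limma adjusted p 0.869), where DRB replicate 1 was the high one. Setdb1, the H3K9 methyltransferase of the pathway, was at 12.8, 10.7 and 14.1 FPKM and 20.1, 12.6 and 13.9 FPKM (limma adjusted p 0.745). The largest differences, named after their values were seen, were those of Cbx1, an HP1 protein, with a log2 fold change of -1.35 (limma adjusted p 0.141), and Atf7ip, a partner of SETDB1, with 1.09 (limma adjusted p 0.155). Other zinc-finger families gave 0 calls as well: 24 Zbtb genes with a median of 0.04, 6 Zkscan genes with 0.10, and 18 Zfp symbols with a letter suffix with 0.12. At an unadjusted limma p below 0.05 stood 1, 1 and 4 of them.

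The 250 bases before the start site were read from RefSeq promoters (GRCm38.p6) for 181 members with 223 starts. They are shown for the called genes Zfp677 and Zfp239 and for Zfp54, the neighbour of Zfp677, which was also higher in every DRB library. Capitals mark matches on either strand to TATAAA (the TATA box), to CCAAT, bound by NF-Y, to GGGCGG, bound by SP1, to GGATTA, bound by OTX-type homeodomains, and to CCGGAA, which was chosen after the sequences were seen. A TATAAA match can overlap 1 on the other strand.
Zfp677, chr17:21383498-21383747, plus strand: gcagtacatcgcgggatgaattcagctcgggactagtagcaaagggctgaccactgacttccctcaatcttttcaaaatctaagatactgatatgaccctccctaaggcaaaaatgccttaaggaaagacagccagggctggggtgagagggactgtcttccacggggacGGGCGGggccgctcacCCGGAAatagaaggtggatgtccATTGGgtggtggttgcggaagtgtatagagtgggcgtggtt
Zfp54, first of 3 starts, chr17:21422977-21423226, plus strand: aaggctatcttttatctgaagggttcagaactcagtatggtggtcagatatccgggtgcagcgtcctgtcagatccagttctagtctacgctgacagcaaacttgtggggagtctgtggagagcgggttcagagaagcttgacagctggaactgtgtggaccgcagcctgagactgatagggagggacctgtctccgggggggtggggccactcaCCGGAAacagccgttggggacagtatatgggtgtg
Zfp239, first of 2 starts, chr6:117861774-117862023, plus strand: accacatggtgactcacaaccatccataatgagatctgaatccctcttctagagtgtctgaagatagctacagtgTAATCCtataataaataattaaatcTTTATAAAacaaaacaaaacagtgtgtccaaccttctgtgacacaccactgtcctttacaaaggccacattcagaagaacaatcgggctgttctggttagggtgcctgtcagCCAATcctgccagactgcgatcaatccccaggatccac
The windows shown for Zfp677 and Zfp54 each held CCGGAA, the core of the ETS family's site, and that for Zfp239 did not. The third start of Zfp54 held GGATTA and not CCGGAA. Of the members' starts 31.8% held CCGGAA, against 24.1% of the starts of other tested genes and 12.03% of all 32851 starts. CCAAT was found at 48.9% of the members' starts, 36.1% of those of other tested genes and 33.8% of all. GGGCGG was found at 48.0%, 55.5% and 32.7%, GGATTA at 8.07%, 5.63% and 6.25%, and TATAAA at 6.73%, 6.84% and 12.4%. A match describes the letters in the window only.

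The libraries were of similar depth, an estimated 22300000 to 24800000 fragments each. Between libraries Pearson's r of log2 values over the tested genes was 0.935 to 0.944 within Con and 0.909 to 0.937 within DRB. Between a Con and a DRB library r was 0.8685 to 0.915, which overlaps the range within DRB. DRB replicate 1 was the least like the rest. It was the DRB library farthest from the middle value of its group for 83 of the 216 members, against 68 and 65 for the others. The share of mitochondrial genes was 16.97% ± 4.15 in the controls against 25.3% ± 1.25 with DRB (SD, n = 3; exact two-sided permutation p 0.1, the smallest that 3 against 3 allows). Leaving them out moved the median of all genes from -0.09 to 0.02 and that of the members to 0.04, and 5 members were then called, all higher. The share of members with a positive sign was then 54.0%, and of all genes 191 were called higher and 74 lower, beside 182 and 113 before. With median-of-ratios scaling 223 genes were called higher and 84 lower. All 8 early embryo markers passed the filter, but nearly all of their summed level was Dppa3, at a mean of 18713 FPKM in Con and 20236 FPKM in DRB. The others had group means from 1.75 FPKM (Ooep in DRB) to 18.6 FPKM (Obox5 in Con). Ooep was at 0.87 and 0.50 FPKM in Con replicates 2 and 3. Of 11 cumulus markers only Gja1 and Amhr2 reached 1 FPKM (summed level 213 to 387 FPKM in Con and 145 to 276 in DRB), and Has2, Fshr, Ptx3 and Inha were at 0. Sperm markers summed to 8.97 to 19.1 FPKM in Con and 7.30 to 17.4 in DRB, nearly all of it Ldhc, and blood markers to 74.3 to 114 and 47.0 to 87.3 FPKM, nearly all of it globins. The part of these other transcripts in the results was not tested.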

How the data were processed

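RNA was measured in 6 libraries of mouse 4-cell embryos, 3 Con and 3 DRB. Reads were handled with cutadapt 1.16 and STAR on mm10, per the submitters' processing notes; the quantifier and its annotation are not given there. The authors deposited 1 FPKM value per gene and library, as the headers name it. FPKM is relative to the library's total, so abundant transcripts lower the values of the rest. Low values of single-transcript genes moved in steps that follow transcript length minus 160 to 190 bases, with 77.1% to 84.9% of them within 0.15 of a whole fragment, and this gave the depth.

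The test covered genes reaching 1 FPKM in 3 or more libraries and used log2(FPKM + 1), which understates changes of low genes, with limma 3.58.1 in R 4.3.3 (mean-variance trend, group as the single term, two-sided, Benjamini-Hochberg over all tested genes, called below 0.05). Nothing in the labels says that replicates are separate cultures; p-values then reflect the spread of these libraries alone, and that spread may be technical. Count models were planned and not used, because the files hold FPKM. The labels do not say whether replicate numbers pair the libraries, and the main fit did not pair them.

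Of the rows 55154 matched GENCODE M21 (GRCm38, the assembly of mm10). Coding frames of its transcripts were translated in place of RefSeq proteins, which were not used here. A finger is C-X(2 to 4)-C-X(12)-H-X(3 to 5)-H, and the KRAB A box pattern needs both of its parts within 30 residues. Python 3.11.15 was used for tables and plots, with pandas 2.3.3, numpy 2.4.6 and matplotlib 3.10.9.

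Members and lists were chosen with earlier results of these data known. Named are called members, the 10 most abundant, the 8 highest and 8 lowest changes without overlap among members that did not pass the filter through 1 group alone, members of 4 role lists, those next to the filter, and Trim28 and Setdb1; Zfp760, Zfp820, Zfp943, Zfp944, Zfp429, Zfp933, Zfp993, Zfp982, Chd4, Cbx1 and Atf7ip were named after their values were seen. Alternatives were other pseudocounts, filters, scalings, thresholds and variance priors, a replicate block and leaving out each library.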

Additional observations from a re-analysis of the deposited data

How the results depend on the processing

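The members called, 3 in all with 2 higher and 1 lower, changed with most settings, and the cause was not tested. With a pseudocount of 0.1, with no filter, and at an adjusted p below 0.01, the counts were 0, 0 and 0 for the members, and 164, 6 and 50 of all genes were called. A minimum of 5 FPKM gave 5 members (4 higher, among 117 tested), leaving out mitochondrial genes 5 (5 higher, 0 lower), median-of-ratios scaling 4, and limma with no trend 1 (1 higher, 0 lower). Of all genes tested in each of these settings, 4.41%, 2.24%, 2.61% and 1.9% were called, in the same order. The 151 members at 1 FPKM in all 6 libraries had 2 calls (1 higher), beside 2.48% of all tested genes. Without 1 library 0 to 1 members were called (0 to 1 higher, 0 lower) and 47 to 220 of all genes; 0 members were called without Con replicate 1, DRB replicate 1 or DRB replicate 2. The members' median stayed between -0.10 and 0.05 in these settings. With the replicate block 2 members were called (1 higher) and 171 of all genes. The 2 members were Zfp239 and Zfp560 (limma adjusted p 0.0451 and 0.0275), while Zfp677 (0.0615) and the second Zfp91 row (0.0588) were not called. Deviations of same-numbered libraries from their group means correlated at -0.05 to 0.05, so no shared deviation by replicate number was seen. The planned count tests were left out because FPKM are not counts.

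Of the 65 named genes followed through the settings, 16 changed sign in some setting, each with a change of at most 0.34 as reported. Chd4 and the genes just outside the filter were not among the 65. With a pseudocount of 0.1 Zfp39 was at -0.030. With median-of-ratios scaling Zfp445 was at 0.012 and Zfp708 at 0.069. With mitochondrial genes left out Zfp706 was at 0.017, Zfp296 at 0.017, Zfp532 at 0.036, Zfp445 at 0.035 and Zfp708 at 0.10. Without 1 library the log2 fold change ranged from -0.18 to 0.34 for Trim28, -0.10 to 0.35 for Zfp131, -0.48 to 0.31 for Zfp296, -0.40 to 0.13 for Zfp346, -0.027 to 0.54 for Zfp36, -0.21 to 0.064 for Zfp445, -0.37 to 0.24 for Zfp532, -0.65 to 0.25 for Zfp57, -0.48 to 0.0042 for Zfp593, -0.67 to 0.081 for Zfp598, -0.17 to 0.38 for Zfp69, -0.34 to 0.16 for Zfp706, -0.28 to 0.30 for Zfp708, -0.28 to 0.22 for Zfp830 and -0.26 to 0.41 for Zfp936.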
